A study of Mus musculus with 2 samples.

Results

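The genes described here are the mouse collagen genes, chosen as every protein-coding gene whose symbol has the form Col, a type number, a and a chain number. The rule found 44 of the 55536 genes in GENCODE M21. Reads were assigned to 15521 annotated genes in all, and to 36 of the 44 collagen genes: 33 in the library of replicate 1, 31 in that of replicate 2 and 28 in both. Of the 36, 19 had 10 or more reads over both libraries, 17 had 1 to 9, and the other 8 genes had 0.

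Collagens are secreted proteins in which stretches of repeated glycine-X-Y triplets from 3 chains wind into a triple helix. In skeletal muscle they form the connective tissue around fibres, bundles and the whole muscle and continue into the tendon, and the basement membrane around each fibre is built on a sheet of type IV collagen. Most collagen transcripts in muscle are made by fibroblasts, tendon cells and vessel cells rather than by the fibres themselves. Fibril-forming collagens pack into rods, type VI makes beaded filaments near the cell surface, fibril-associated collagens coat or link the rods, and multiplexins carry a triple helix that is broken many times.

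The study sequenced full-length RNA copies as long reads of the gastrocnemius, which lies in the calf. The animals were B6CASTF1/J females, 25 days old. This strain is the first-generation cross of C57BL/6J and CAST/EiJ. The 2 libraries, each from 2 µg of total RNA, are biological replicates 1 and 2 and form 1 group, with no treatment or control. The labels number the animals 3 and 4 but give both samples the same donor record, so whether 2 animals or 1 lie behind the SD (n = 2) is not settled. A comparison between them therefore measures how 2 libraries differ, with counting error alone behind each p-value.

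The libraries held 1069771 mouse reads (replicate 1) and 1557594 mouse reads (replicate 2), so that 3 reads corresponded to 2.80 and 1.93 CPM, reads per 1000000 mouse reads. Both matched the tissue label: Acta1, skeletal muscle actin, had 79155 and 117236 reads and Ckm, muscle creatine kinase, 64103 and 108494. The libraries also stood apart. Of the 8892 genes tested between them, 26.0% differed, 11.1% higher and 14.9% lower in replicate 2 (Fisher's exact test on each gene's reads, Benjamini-Hochberg adjustment, threshold 0.05), and the marker counts below are read against these shares. All 7 slow fibre genes listed (among them Tnnt1, 204 and 5366 reads) were higher in replicate 2, with a summed level of 1023 CPM in replicate 1 and 7807 CPM in replicate 2. Of 9 tendon markers, 8 could be tested and 7 were higher in replicate 2, with a summed level of 96.3 and 458 CPM. Of 6 adipocyte markers 5 were lower in replicate 2 (summed level 517 and 237 CPM), as were 5 of 7 smooth muscle and pericyte markers (331 and 182 CPM). The 11 fibroblast markers split into 1 higher, 2 lower and 8 past no threshold, with a summed level of 2023 and 1714 CPM. The part of these tissue differences in the collagen results was not tested, and more cells of a type cannot be told apart from more RNA per cell. The ratio also moved with the length of the gene model: genes with models of up to 1000 bases had a median log2 ratio of replicate 2 over replicate 1 of 0.80, and those over 4000 and up to 8000 bases, where 16 of the 19 tested collagen genes lie, of -0.64.

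The repeat that defines the family can be read in the exons. All 44 genes held a run of at least 20 in-frame triplets that begin with a glycine codon (GGN), with a median longest run of 58.5 triplets, whereas 20 of 21822 other protein-coding genes did, with at most 81 triplets, in the macrophage receptor gene Marco. The longest run was in Col3a1 (344 triplets), followed by Col1a2, Col2a1 and Col5a2 (339 triplets each). Of 1920 internal coding exons of collagen genes 63.8% had a length divisible by 9 and 24.4% were exactly 54 bases long, against 13.7% and 0.444% of exons in the other genes. In 9 fibril-forming genes (Col1a1, Col1a2, Col2a1, Col3a1, Col5a1, Col5a2, Col5a3, Col11a1 and Col11a2) all 400 exons that lie wholly inside the run had such a length and opened with the glycine codon, and 236 were 54 bases long. A 54-base exon from each of the 3 most read collagen genes is printed to show the pattern, with glycine codons in capitals (GENCODE M21, mm10, plus strand, chr11:94940545-94940598, chr6:4515961-4516014 and chr1:45327589-45327642).
Col1a1 exon 10: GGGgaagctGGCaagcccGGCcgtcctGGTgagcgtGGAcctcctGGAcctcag
Col1a2 exon 10: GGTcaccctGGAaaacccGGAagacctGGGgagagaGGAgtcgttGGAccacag
Col3a1 exon 9: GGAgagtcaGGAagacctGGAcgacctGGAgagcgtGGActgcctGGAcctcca

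Collagen genes took 5215 reads in replicate 1 and 4099 reads in replicate 2, that is 0.487% and 0.263% of mouse reads, or 3753 ± 1586 CPM (SD, n = 2). Counts were not divided by length, so levels of different genes are compared here as numbers of reads. PCR copies were not identified, so 2 reads need not stand for 2 RNA molecules. The transcripts are long, with a median of 5626 bases over the 44 longest coding transcripts against 2537 bases in other coding genes. The 11 fibril-forming genes gave 85.9% of collagen reads in replicate 1 (exact 95% binomial interval 85.0 to 86.9) and 84.7% in replicate 2 (83.6 to 85.8). Type IV gave 9.72% (8.93 to 10.6) and 9.90% (9.01 to 10.9), and type VI 2.88% (2.44 to 3.37) and 3.07% (2.57 to 3.65). These 3 shares had overlapping intervals in the libraries, although the total was lower in replicate 2. The 9 fibril-associated genes took 0.671% and 1.59%, with intervals that did not overlap (0.468 to 0.932 and 1.23 to 2.02). The 2 multiplexins took 0.499% and 0.317%, types VIII and X 0.192% and 0.171%, the anchoring and other collagens 0.0767% and 0.195%, and the transmembrane collagens 0.0384% and 0.0244%.

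Among complete chains, the annotated, NIC and NNC classes defined below, the fibril-forming share was 90.8% and 93.1%. That of type IV was 5.81% and 3.01%. The near-equal type IV shares over all reads were thus not seen among complete chains. The fibril-associated shares were 0.565% (0.354 to 0.854) and 0.699% (0.373 to 1.19) there, with intervals that overlapped. Over reads with 2 or more exons these shares stayed apart, at 0.672% (0.466 to 0.938) and 1.79% (1.37 to 2.31).

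**Figure D1:**
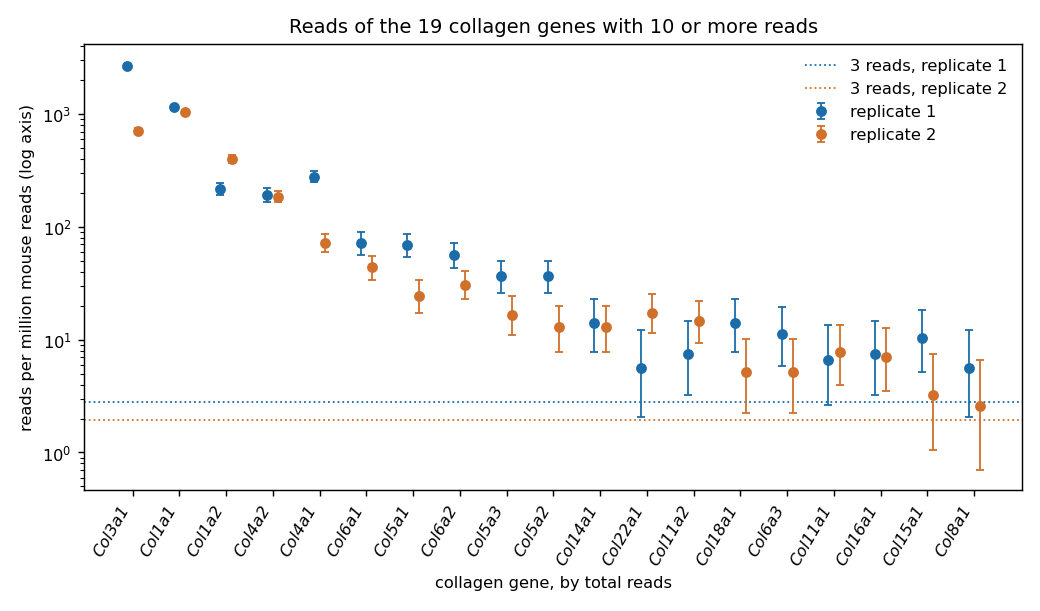
Reads in CPM on a log axis for the 19 collagen genes with 10 or more reads, by total reads, in replicate 1 (blue) and replicate 2 (orange); bars are exact 95% Poisson intervals and dotted lines mark 3 reads. Col3a1 and Col4a1 lie far lower in replicate 2, Col1a2 lies higher, and Col1a1 and Col4a2 lie close together.

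Between the libraries, 9 of the 19 testable collagen genes differed, 7 lower and 2 higher in replicate 2 (Fisher's exact test on each gene's reads, Benjamini-Hochberg over 8892 genes, threshold 0.05). Of all genes tested 26.0% differed, 14.9% lower and 11.1% higher, so the libraries differed widely. The median log2 ratio was -0.86 over the 19 genes and -0.18 over all genes. Scaling by TMM or DESeq2 moved the median of all genes to 0.00, left the collagen median at -0.68 and called 7 of 19 genes, against 23.8% (TMM) and 23.9% (DESeq2) of all genes, with Col6a1 and Col6a2 no longer past the threshold. At a fixed dispersion of 0.04 in edgeR, which allows for spread beyond counting, only Col3a1 and Col4a1 were called, against 2.25% of all genes.

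Col3a1, which encodes the chain of type III collagen of reticular and thin fibrils, led the family. It had 2851 reads in replicate 1 (2665 CPM) and 1099 in replicate 2 (706 CPM), a log2 ratio of -1.92 (exact 95% interval -2.02 to -1.82), with an adjusted p of 0 as stored by the software (Fisher's exact test). Col1a1, the α1 chain of type I collagen, the main protein of tendon and of muscle sheaths, had 1229 and 1629 reads (1149 and 1046 CPM). Its log2 ratio of -0.14 (-0.24 to -0.03) just missed the threshold (adjusted p = 0.0509, Fisher's exact test). With a minimum of 50 reads per gene it passed (adjusted p = 0.0309, Fisher's exact test), as did 47.0% of 4214 genes. The order of these 2 genes thus turned over: Col1a1 had 0.431 reads per Col3a1 read in replicate 1 (exact 95% interval 0.403 to 0.461) and 1.48 in replicate 2 (1.37 to 1.60). Over complete chains the ratio was 0.380 and 0.995.

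Col1a2, the α2 chain of the same type I molecule, went the other way. It had 232 and 623 reads (217 and 400 CPM), a log2 ratio of 0.88 (0.66 to 1.11, adjusted p = 4.65e-15, Fisher's exact test). The type I molecule holds more α1 than α2 chains, and Col1a1 had 5.30 reads per Col1a2 read in replicate 1 (4.60 to 6.12) and 2.61 in replicate 2 (2.38 to 2.87). Few of the Col1a2 reads were complete, however. Over complete chains, 20 and 30 Col1a2 reads stood beside 952 and 839 Col1a1 reads. The ratios were 47.6 (30.6 to 78.3) and 28.0 (19.4 to 41.7), with overlapping intervals. Not all of these 20 and 30 reads spanned the transcript, as only 11 and 19 Col1a2 reads reached exon 1. The higher Col1a2 level was not called on complete chains either, with a log2 ratio of 0.18 (adjusted p = 0.830, Fisher's exact test).

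The type V genes, whose chains nucleate and thin type I fibrils, were all lower in replicate 2. Col5a1 had 74 and 38 reads (log2 ratio -1.49, adjusted p = 1.10e-06), Col5a2 39 and 20 (-1.49, adjusted p = 0.000828) and Col5a3 39 and 26 (-1.12, adjusted p = 0.0120), each by Fisher's exact test. The ratio of Col5a1 to Col5a2 was 1.90 in both. Type XI genes, partners of type V and of cartilage type II, were few and did not pass the test: Col11a2 had 8 and 23 reads and Col11a1 7 and 12. Col2a1, the cartilage collagen, had 0 and 3 reads, and Col24a1 and Col27a1 had 1 read each, all in replicate 1.

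Type IV collagen of the basement membrane came from Col4a1 and Col4a2, which lie head to head on chromosome 8 and encode the chains found in most tissues. Col4a1 had 299 and 113 reads (279 and 72.5 CPM, log2 ratio -1.94, -2.27 to -1.63, adjusted p = 3.81e-37, Fisher's exact test), while Col4a2 had 206 and 289 (193 and 186 CPM, log2 ratio -0.05, adjusted p = 0.844, Fisher's exact test). The pair, read at 1.45 Col4a1 reads per Col4a2 read in replicate 1, stood at 0.391 in replicate 2 (exact 95% intervals 1.21 to 1.74 and 0.312 to 0.488). On complete chains the same ratio was 2.69 (1.99 to 3.67) and 2.60 (1.40 to 5.08), and both genes were lower in replicate 2, Col4a1 by a log2 ratio of -2.45 (164 and 39 reads) and Col4a2 by -2.38 (61 and 15 reads). The 2 genes differed most in reads confined to the last exon. Of these Col4a2 had 64 in replicate 1 (31.1% of its reads, 24.8 to 37.9) and 236 in replicate 2 (81.7%, 76.7 to 86.0), and Col4a1 had 9 (3.01%) and 17 (15.0%). The other 4 type IV genes, most of them known from kidney, eye and ear basement membranes, were nearly absent: Col4a5 had 1 and 2 reads, Col4a4 1 and 1, Col4a3 0 and 1, and Col4a6 none.

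Type VI collagen, whose loss causes muscle disease in people, came from 3 genes. Col6a1 had 77 and 68 reads (log2 ratio -0.72, adjusted p = 0.0154), Col6a2 60 and 48 (-0.86, adjusted p = 0.0122) and Col6a3 12 and 8 (-1.10, adjusted p = 0.251), each by Fisher's exact test. The α1 and α2 chains join with an α3 chain in each molecule. Col6a1 had 1.28 and 1.42 reads per Col6a2 read, and 6.42 and 8.50 per Col6a3 read. The longest coding transcripts of these genes have 4100 bases (Col6a1), 3949 bases (Col6a2) and 10106 bases (Col6a3). No Col6a3 read reached the first or the last exon of that transcript (0 of 12 and 0 of 7 reads placed on it). Near the 3′ end, however, 12 of 12 and 4 of 5 spanning reads used an annotated intron absent from that transcript. The missing last exon therefore need not mean a shortened read. Col6a5 and Col6a6 had 0 and 1, and 1 and 1 reads, and Col6a4 had none.

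The fibril-associated genes were rare, and only Col22a1 differed. Col22a1, whose protein sits at muscle-tendon junctions, had 6 and 27 reads (log2 ratio 1.54, 0.32 to 3.19, adjusted p = 0.0327, Fisher's exact test), and with no read minimum it missed the threshold (adjusted p = 0.0563, 13.1% of 15521 genes called). Col14a1, a fibril coat protein, had 15 and 20 reads, and Col16a1 8 and 11. Col12a1 had 2 and 5, Col19a1 1 and 2, Col20a1 2 and 0, Col9a3 1 and 0, and the cartilage genes Col9a1 and Col9a2 none. Among multiplexins, Col18a1, which yields the fragment endostatin, had 15 and 8 reads (log2 ratio -1.41, adjusted p = 0.0686, Fisher's exact test) and Col15a1 11 and 5. Of the rest, Col8a1 had 6 and 4 reads, Col8a2 4 and 3, Col26a1 1 and 5, Col7a1 1 and 3, Col28a1 2 and 0, and Col13a1, a collagen of the neuromuscular junction membrane, 2 and 1. Col10a1, Col17a1, Col23a1 and Col25a1 had none, so that their levels lay below what 3 reads allow (2.80 and 1.93 CPM).

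When the ratios were corrected for the trend with model length over all genes, 8 of 19 collagen genes differed, 5 higher (Col1a1, Col1a2, Col4a2, Col11a2 and Col22a1) and 3 lower (Col3a1, Col4a1 and Col5a1), against 13.2% of 8752 genes, 7.56% higher and 5.59% lower. Col1a1 then stood at 0.52 and Col4a2 at 0.60, so the sign for these 2 depended on this choice, as it did on TMM or DESeq2 scaling. Restricted to complete chains, 10 of 12 genes differed, all lower, against 26.6% of 7634 genes in either direction and 15.0% lower, with Col1a1 at -0.57 (adjusted p = 1.85e-15, Fisher's exact test). Over spliced reads, those with 2 or more exons, 13 of 18 genes differed, 2 higher (Col1a2 and Col22a1) and 11 lower, against 26.6% of 7787 genes. Col3a1, Col4a1 and Col5a1 were lower under all 3 choices.

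**Figure D2:**
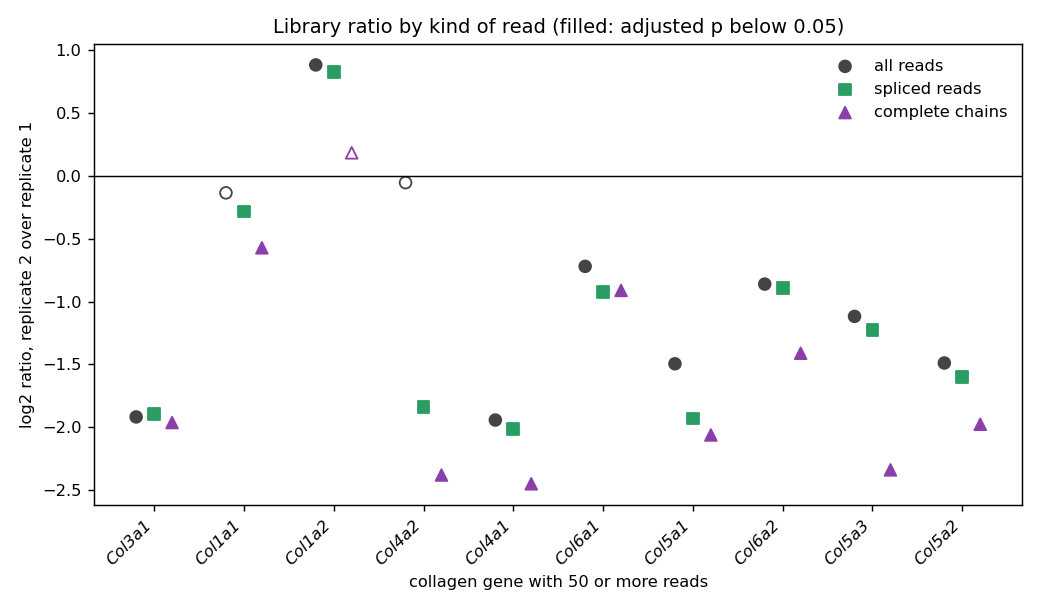
Log2 ratio of replicate 2 over replicate 1 for the 10 collagen genes with 50 or more reads, over all reads (grey circles), spliced reads (green squares) and complete chains (purple triangles); filled symbols passed an adjusted p of 0.05. Col4a2 moves from -0.05 over all reads to -1.84 over spliced reads and -2.38 over complete chains, whereas Col3a1 stays near -1.9.

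Each read is placed in a transcript class. Annotated chains match all introns of a GENCODE transcript, NIC chains join known splice sites in a new way, and NNC chains hold a splice site outside the annotation. These 3 are called complete here, although NIC and NNC reads were not required to reach exon 1. ISM reads (incomplete splice match) match only part of a chain and genomic reads match no chain. In collagen genes ISM reads were 24.5% of reads in replicate 1 (1277 of 5215) and 47.3% in replicate 2 (1937 of 4099), or 35.9 ± 16.1% (SD, n = 2), against 8.51% and 12.3% over all annotated genes and 21.6% and 27.2% in other genes whose models are over 4000 and up to 8000 bases long. Of collagen ISM reads 90.7% and 71.9% were spliced reads that lacked the 5′ end, and 15 spliced reads in all lacked the 3′ end. A few ISM reads of replicate 2 were in neither group and held more than 1 exon. Another 8.77% and 26.1% of ISM reads held a single exon and are counted apart. These single-exon reads can lack the 5′ end too, as did those of Col4a2 (64 and 236 reads, all in the last exon). Genomic reads were 0.863% and 7.37%, against 2.21% and 5.50% over all annotated genes and 5.40% and 15.8% in the other genes of that length, so the collagens lay below the latter in both libraries.

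**Figure D3:**
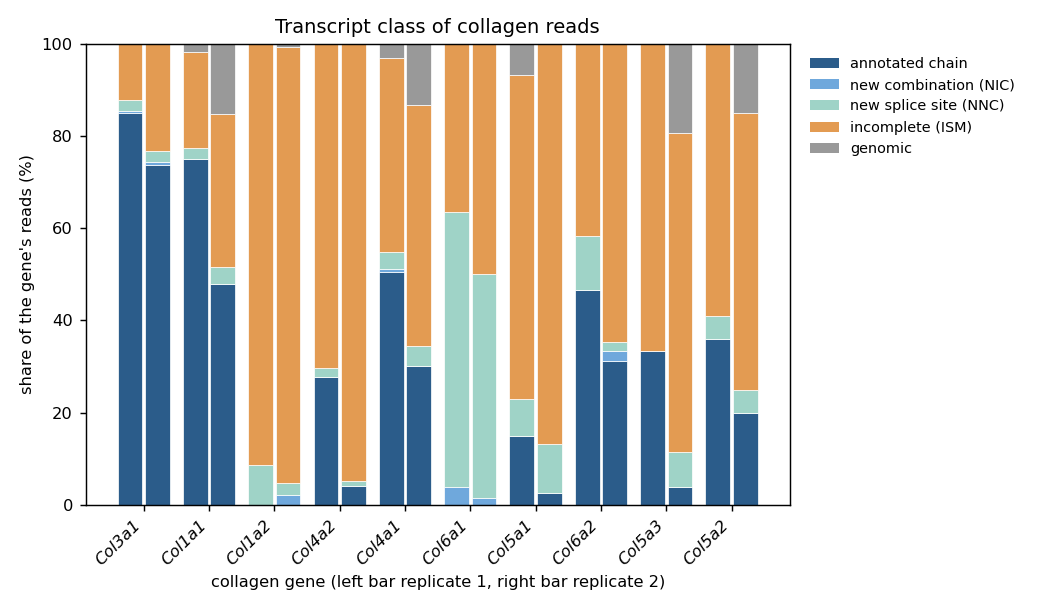
Share of reads in each transcript class for the 10 collagen genes with 50 or more reads, replicate 1 on the left and replicate 2 on the right of each pair. Annotated chains hold most reads of Col3a1 and none of Col1a2 or Col6a1, and incomplete reads take a larger share in replicate 2 for every gene drawn.

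The genes differed in how complete their reads were. Col3a1 had the lowest ISM share of the 10 genes with 50 or more reads, 12.1% and 23.2% of its reads, and Col1a2 the highest in replicate 1, 91.4%, with 94.5% in replicate 2. Col1a1, with 51 exons and 5930 bases in the annotation, was at 20.8% and 33.4%. The 2 chains of type I collagen thus lay far apart, although the annotated Col1a2 transcript, at 5348 bases and 52 exons, is no longer. The 3′ ends read differed, however. Outside annotated chains, 263 and 580 Col1a1 reads ended 1195 bases short of the annotated end, and 36 and 255 at it. In Col1a2 132 and 292 ended 537 bases short and 88 and 316 at it. The lengths of the RNAs read were not compared. Tested as ISM against complete reads, 3 of 11 collagen genes differed between libraries, all with more ISM in replicate 2, against 6.18% of 5403 genes in either direction and 5.52% with more ISM. These were Col1a1 (21.2% and 39.3% of ISM and complete reads, adjusted p = 2.67e-21), Col3a1 (12.1% and 23.2%, adjusted p = 4.47e-15) and Col4a2 (70.4% and 94.8%, adjusted p = 1.15e-11), by Fisher's exact test. The value was higher in replicate 2 in all 11 collagen genes, with medians of 53.3% and 70.6%, and in 58.1% of all genes, with medians of 5.37% and 6.98%.

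The reads' spans show where they stopped. In Col3a1 87.8% and 76.6% of reads reached exon 1, in Col1a1 77.2% and 51.2%, in Col4a1 53.2% and 33.6%, and in Col6a1 63.6% and 41.2%. In Col1a2 4.74% and 3.05% did, and its median read began at exon 26.5 and at exon 40 of 52, with losses spread along the transcript. In Col4a2 29.1% and 4.84% did, with most of the loss at the last exon in replicate 2. Reads confined to the last exon were 2.28% and 18.7% in Col1a1, where 21 and 246 reads were classed as genomic. Among spliced reads, the 5 most read incomplete chains of the family were all 3′ pieces of type I genes with more reads in replicate 2: the last 9, 13 and 11 exons of Col1a1 (16 and 49, 9 and 39, and 10 and 29 reads) and the last 7 and 5 exons of Col1a2 (3 and 38, and 6 and 33 reads). The single-exon reads of Col4a2 described above, 64 and 236, are also of the ISM class and outnumbered each of these chains.

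**Figure D4:**
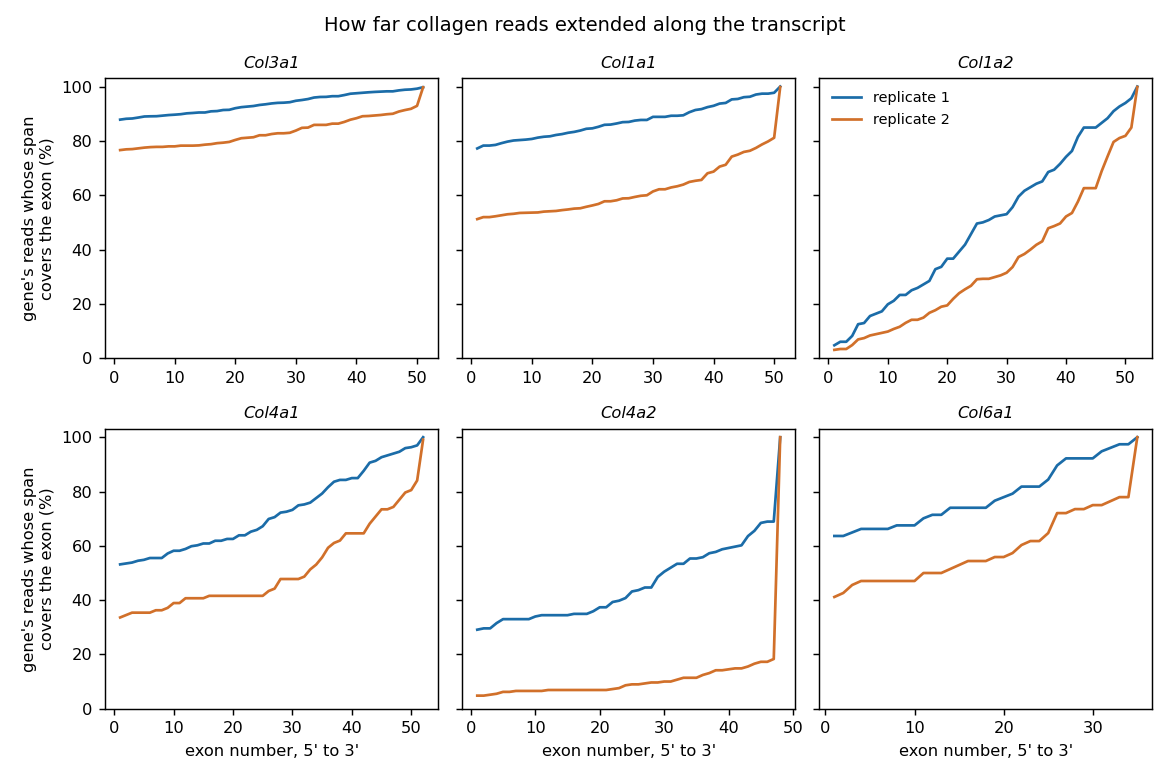
Share of a gene's reads whose span covers each exon, numbered 5′ to 3′, for 6 collagen genes in replicate 1 (blue) and replicate 2 (orange). Col3a1 stays above 76% to exon 1, Col1a2 declines along its whole length, and in Col4a2 replicate 2 drops at the last exon, which holds 81.7% of its reads alone.

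Among complete chains most genes had a single leading isoform. Col3a1-201 (51 exons, 5564 bases) had 2420 and 810 reads and Col1a1-201 921 and 780, making 96.4% and 95.0% of their genes' complete reads over both libraries. Col4a1-201 had 151 and 34 reads and Col4a2-201 57 and 12, Col6a2-201 27 and 14, Col5a1-201 11 and 1, Col5a2-201 14 and 4 and Col5a3-201 13 and 1. The other complete chains were mostly read once, as were 62 of the 75 of Col3a1 and 56 of the 68 of Col1a1. Isoform shares were tested in 3 collagen genes (Col1a1, Col3a1 and Col6a1, with 20 or more reads per library in chains of 5 or more) and none passed, against 3.44% of 1688 genes; the adjusted p values were 0.852, 0.931 and 0.185 (Fisher's exact or permutation test), and the unadjusted p of Col6a1 was 0.0109, the 1 below 0.05.

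No read matched an annotated chain in 4 of the genes with 10 or more reads: Col1a2, Col6a1, Col6a3 and Col16a1. Col1a2 and Col6a1 had 50 and 83 reads in complete chains, Col16a1 and Col6a3 only 9 and 5. In Col1a2 and Col6a1 the annotation holds very short exons. In Col1a2 these are exon 2 (11 bases, chr6:4508335-4508345) and exon 3 (15 bases, chr6:4508940-4508954), and in Col6a1 exons 6 and 7 (21 bases each, chr10:76721263-76721283 and chr10:76721088-76721108) and exon 29 (9 bases, chr10:76712865-76712873). All are coding exons present in every annotated transcript of the gene. Their sequences are shown as joined in the annotated mRNA, with the short exons in capitals between the nearest 18 bases of the exons on each side; Col5a2 exon 3 (14 bases, chr1:45438870-45438883), which was kept, is shown beside them. Col6a1 and Col5a2 lie on the minus strand and Col1a2 on the plus strand (GENCODE M21, mm10).
Col1a2 exons 2 and 3: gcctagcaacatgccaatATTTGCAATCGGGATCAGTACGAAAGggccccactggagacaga
Col6a1 exons 6 and 7: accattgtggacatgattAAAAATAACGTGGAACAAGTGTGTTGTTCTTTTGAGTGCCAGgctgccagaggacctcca
Col6a1 exon 29: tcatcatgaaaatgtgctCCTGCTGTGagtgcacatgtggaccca
Col5a2 exon 3: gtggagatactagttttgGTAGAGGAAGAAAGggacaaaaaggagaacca

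None of the short exons of the first 2 genes appeared in a read. Exons 2 and 3 of Col1a2 were in 0 of 11 spanning reads in replicate 1 and 0 of 19 in replicate 2, which allows a share of up to 28.5% and 17.6% (exact 95% upper bounds). Exons 6 and 7 of Col6a1 were in 0 of 51 and 0 of 32 reads (up to 6.98% and 10.9%), and exon 29 in 0 of 71 and 0 of 50 (up to 5.06% and 7.11%). Col5a2 exon 3 was in 14 of 15 and 5 of 5 reads.

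The reads did not simply drop the bases. In Col6a1 the 42 bases of exons 6 and 7 were replaced by 37 bases added at the start of exon 8 in all 83 spanning reads, and the 9 bases of exon 29 by 4 bases added at the end of exon 28 in 118 of 121. The leading chain, an NNC chain with 41 and 25 reads, thus had 32 exons and 4090 bases against 35 exons and 4100 bases in Col6a1-201. In Col1a2 22 reads carried 4 bases more of exon 1 and 6 reads carried 16 bases more of exon 4 in place of the 26 bases of exons 2 and 3, and its leading chain had 50 exons with 6 and 11 reads. In each case the net change, of 5, 5, 22 and 10 bases, is no multiple of 3. Whether these bases are real splice choices or placements by the read alignment was not tested.

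Skipping of very short exons was also seen beyond the collagens, where bases gained in their place were not examined. Among exons present in every annotated transcript of their gene and spanned by 10 or more reads, all 10 exons of up to 15 bases in other coding genes were skipped by most reads, as were 3 of 4 in collagens (Col5a2 exon 3 is the exception). At 16 to 30 bases 18 of 276 exons in other genes (6.52%) and 2 of 19 in collagens (10.5%) were skipped by most reads. Those 2 were Col6a1 exons 6 and 7. Counted by passages of a read over an exon, the order was the reverse, with 77.4% skipping in other genes and 18.8% in collagens. No collagen exon longer than 30 bases was, over 375 exons of 31 to 60 bases, 222 of 61 to 120 and 130 above that. The size class that holds the repeated 54-base exons was thus rarely skipped: 0.168% of the passages of a read over a collagen exon of 31 to 60 bases left it out, against 0.207% in other genes.

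**Figure D5:**
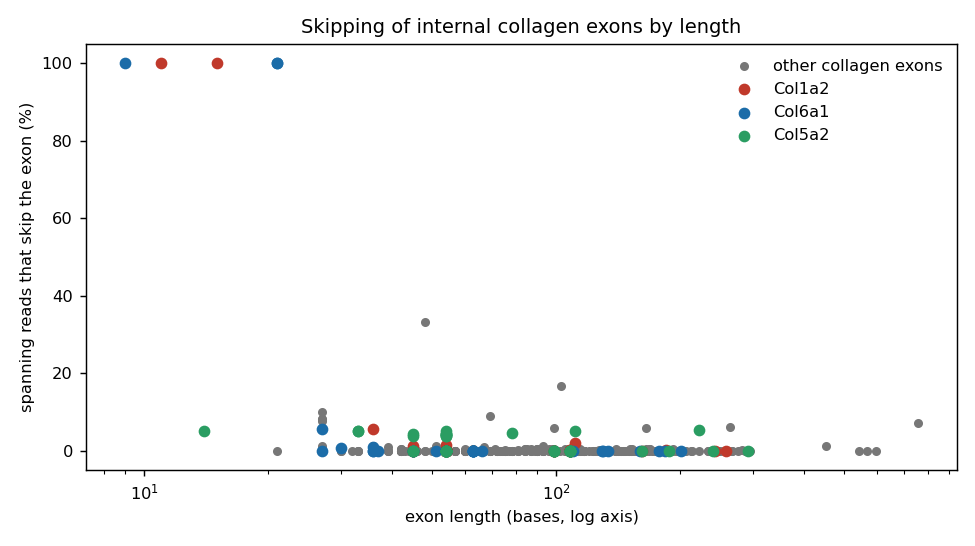
Share of spanning reads that skip each internal collagen exon, against exon length on a log axis, for exons spanned by 10 or more reads; Col1a2 (red), Col6a1 (blue) and Col5a2 (green) are marked. The 5 exons at 100% are 9 to 21 bases long and belong to Col1a2 and Col6a1, and the green point at 14 bases is the Col5a2 exon that was kept.

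The chains outside the annotation with 10 or more reads were, beside those of Col6a1 and Col1a2, both from Col3a1 (14 and 5, and 11 and 1 reads). The most read other intron in Col3a1 began 4 bases downstream of the annotated donor and was in 15 of 2607 and 5 of 875 spanning reads. Col16a1 used an annotated splice site 9 bases upstream of that of its longest coding transcript in 18 of 18 reads, and its 48-base exon 41 was in 4 of 7 and 4 of 5 reads. In Col18a1, of 11 reads that spanned exon 2 of the longest coding transcript, 10 (8 and 2) continued to an annotated exon upstream of its exon 1 and 1 read of replicate 1 reached that exon 1. Annotated introns absent from the longest coding transcript also led in Col6a3, where 1 near the 3′ end was in 12 of 12 and 4 of 5 spanning reads, and in Col14a1, where 1 was in 7 of 8 and 4 of 4.

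Of 18 genes for chain modification and folding, 15 were testable: 5 were lower in replicate 2, none was higher and 10 did not pass, against 14.9% lower and 11.1% higher over all genes tested, with a median log2 ratio of -0.39. With the length trend removed only Plod3 of these was lower. The 3 most read were Serpinh1, the collagen chaperone HSP47 (259 and 288 reads, -0.39, adjusted p = 0.00981), P4hb, a prolyl hydroxylase subunit (241 and 262, -0.42, adjusted p = 0.00752), and Colgalt1, a collagen galactosyltransferase (84 and 70, -0.80, adjusted p = 0.00376), by Fisher's exact test. For cleavage and cross-linking 7 of 14 were testable, 1 higher and 1 lower, with a median of 0.26. Sparc, a collagen-binding matrix protein, had 709 and 1453 reads (0.49, adjusted p = 1.05e-12, Fisher's exact test), Pcolce, an enhancer of procollagen cleavage, 99 and 195 (0.43, adjusted p = 0.0553), and Lox, a cross-linking oxidase, 21 and 37 (0.26, adjusted p = 0.710). The 1 gene that was lower was Adamts2, the procollagen N-proteinase (34 and 20 reads, -1.29).

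No gene of the 8 testable in the list for collagen breakdown passed, at a median of -0.18; Timp2, an inhibitor of matrix proteases, had 83 and 118 reads, the protease Mmp2 61 and 65 and Timp4 35 and 41. Of the collagen receptors 3 of 7 were testable and only the integrin β1 gene Itgb1 differed (166 and 135 reads, -0.84, adjusted p = 7.01e-06, Fisher's exact test); Ddr1 had 15 and 20 reads and Ddr2 7 and 6. Of 10 testable basement membrane partners 3 were lower, against 14.9% of all genes: the laminin chains Lamb2 (173 and 75 reads, -1.74), Lamc1 (91 and 38, -1.79) and Lamb1 (37 and 15, -1.82). None was higher and 7 did not pass, and the median was -0.93. With the length trend removed Lamb2 and Lamc1 remained lower (-1.09 and -1.14), and Sparc alone of the cleavage list was higher (0.71). Itgb1, at -0.28, then no longer passed.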

How the data were processed

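The deposited files give whole-number read counts per transcript model and library, made by the authors from mm10 alignments and the GENCODE M21 annotation, per the file headers and notes and the gene models were built with TALON, per the file headers. The sequencing platform, aligner and read filters were not stated in the labels or notes. Counts were summed per annotated gene, and spike-in reads were left out of the totals. CPM is reads per 1000000 mouse reads. Log2 ratios had 0.5 reads added. Genes with 10 or more reads over both libraries were tested with Fisher's exact test (two-sided, scipy 1.17.1), the ISM test needed 10 reads in each library, and isoforms were matched by intron chain, with up to 100000 permutations of reads. These tests compare 2 libraries, not conditions, and p-values and intervals cover counting error only; PCR copies were not identified. The alternatives used TMM (edgeR 4.0.16), DESeq2 1.42.0 size factors, other read minimums, a fixed dispersion of 0.04, a lowess on length and complete chains. Spliced reads were added after seeing the data. Scripts were tested on simulated data. Exons follow the transcript with the longest coding sequence, from GENCODE M21. Collagen genes with 20 or more reads were to be named, with the most read chain at 50 or more reads, chains outside the annotation with 10 or more reads, the 5 most read ISM chains and the 3 most read genes of each companion list; others were named with their reads. The members and lists were chosen with earlier results of these data known. Of the markers of other cell types, 1 of 10 testable endothelial genes was higher and 2 lower in replicate 2, 3 of 4 testable Schwann cell genes lower and 1 of 7 testable macrophage genes higher, against 11.1% higher and 14.9% lower over all genes tested, and 1 of 9 cartilage and bone genes was testable and did not pass.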

Additional observations from a re-analysis of the deposited data

How the results depend on the processing

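The total of collagen reads and the ISM share moved by less than 1 SD under other totals, scalings and definitions of the share. Leaving out either replicate gave 2632 to 4875 CPM and an ISM share of 24.5% to 47.3%; with 2 libraries this moves a mean by less than 1 SD whatever the values. Class shares moved. With annotated chains only, the mean share was 94.3% for fibril-forming genes, 4.23% for type IV, 0.832% for type VI, 0.333% for fibril-associated genes, 0.211% for multiplexins, 0.115% for types VIII and X, 0% for transmembrane and 0.0137% for anchoring and other collagens. With complete chains it was 91.9%, 4.41% and 2.53% for the first 3, 0.273% for multiplexins, 0.105% for types VIII and X and 0.0526% for transmembrane collagens. With spliced reads it was 88.7% for fibril-forming genes, 6.59% for type IV and 0.0699% for types VIII and X.

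The 9 genes that differed became 2 (Col3a1 and Col4a1) at a fixed dispersion of 0.04, which allows for spread beyond counting, where 2.25% of genes were called, and 13 of 18 with spliced reads. Of 158 values of single genes under an alternative, 118 kept their call, 17 lost it, 10 gained it and 13 changed sign. None of the latter was past the threshold over all reads. Under TMM and DESeq2 scaling the ratio became 0.0475 and 0.0438 in Col1a1, 0.129 and 0.125 in Col4a2, 0.0445 and 0.0408 in Col14a1, and 0.0772 and 0.0735 in Col16a1. With the length trend removed it became 0.52 in Col1a1, 0.60 in Col4a2, 0.52 in Col14a1 and 0.54 in Col16a1, and with spliced reads 0.0108 in Col16a1. The cause was not tested. No paired analysis was possible because the labels give a single group. Depth limits the 17 genes with 1 to 9 reads and the 8 with none, which cannot be ranked.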
